A study of Homo sapiens with 6 samples.

Results

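Potassium channel genes outside the KCNN family were followed in BHT101, an established human thyroid carcinoma cell line, with and without overexpression of SK4. SK4, also called KCa3.1, is the calcium-activated potassium channel encoded by KCNN4. The set was every protein-coding row of the deposited expression table whose symbol starts with KCN but not with KCNN. That gave 74 genes out of 32896 rows, of which 18000 were protein-coding. The cells had been transfected with a control plasmid (3 libraries) or an SK4 plasmid (3 libraries) using a lipid reagent and were harvested at 48 h. The labels name neither the vector nor the promoter on the plasmid, so the transfection is known here only by its effect on KCNN4. The treatment label of control replicate 3 reads BHT102, while its cell line label and source name read BHT101, and it was kept as a control. Levels are in FPKM, the fragments of a gene divided by its length and by the library's depth. Comparing levels between genes depends on the length used for each gene, which was not stated.

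Potassium channels let potassium leave the cell down its gradient and so set the resting membrane potential, which in turn drives the entry of calcium. The genes fall into families by build. Voltage-gated channels open on depolarisation and are formed by 4 pore subunits, often with accessory subunits. Inward rectifiers hold the resting potential, tandem-pore channels carry a steady leak, and large-conductance channels answer to both voltage and calcium. In thyroid follicular cells, KCNQ1 with its accessory subunit KCNE2 is the potassium channel best known for supporting iodide uptake, and KCNJ16 is an inward rectifier typical of kidney and thyroid.

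The libraries were similar in depth and in type. They held an estimated 29700000 to 38500000 fragments, with control replicate 3 the shallowest, and 10735 to 11147 genes per library reached 1 FPKM. All 5 epithelial markers reached a mean of 1 FPKM (EPCAM, CDH1, KRT8, KRT18 and KRT19), with summed levels of 526.72 to 575.02 FPKM in control cells and 541.73 to 591.28 FPKM with SK4. None of the 7 thyroid follicular markers did: TG, TSHR, SLC5A5 and NKX2-1 had group means of at most 0.0467 FPKM, FOXE1 of at most 0.09 FPKM, and PAX8 was at 0.333 FPKM in control cells and 0.367 FPKM with SK4. Of the mesenchymal markers only VIM reached 1 FPKM, and of the leukocyte markers only CD14, while PTPRC was at 0.00333 FPKM in both groups. KCNN4 checked the labels, although bulk RNA does not tell more transfected cells from more RNA per cell. It was at 8.31, 8.26 and 8.52 FPKM in control replicates 1 to 3 and at 184.14, 147.66 and 169.2 FPKM in SK4 replicates 1 to 3. The groups were far apart, with a fitted fold of 18.8 (95% confidence interval 16.6 to 21.3, limma, adjusted p = 8.83e-07). The exact two-sided permutation test over the libraries gave p = 0.1, the smallest it allows with 3 against 3.

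Few of the potassium channel genes were present at more than a trace. Of the 74 genes, 1 had a mean of at least 10 FPKM over the 6 libraries, 5 lay between 1 and 10 FPKM, 13 between 0.1 and 1 FPKM, and 55 under 0.1 FPKM. Thus 8.11% of the genes had a mean of at least 1 FPKM, against 53.7% of all protein-coding rows, and 74.3% lay under 0.1 FPKM, against 28.4%. The summed level was concentrated in a handful of genes. The leading 4 genes held 77.3% of it and the leading 7 genes 87.2%, while the remaining 67 genes together came to 5.46 FPKM. RefSeq lists 92 protein-coding genes under the same naming rule. The other 18, among them KCNA1, KCNA2, KCNA5, KCND2, KCNJ10 and KCNJ15, had no row in the table used here and were not analysed here.

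**Figure D1:**
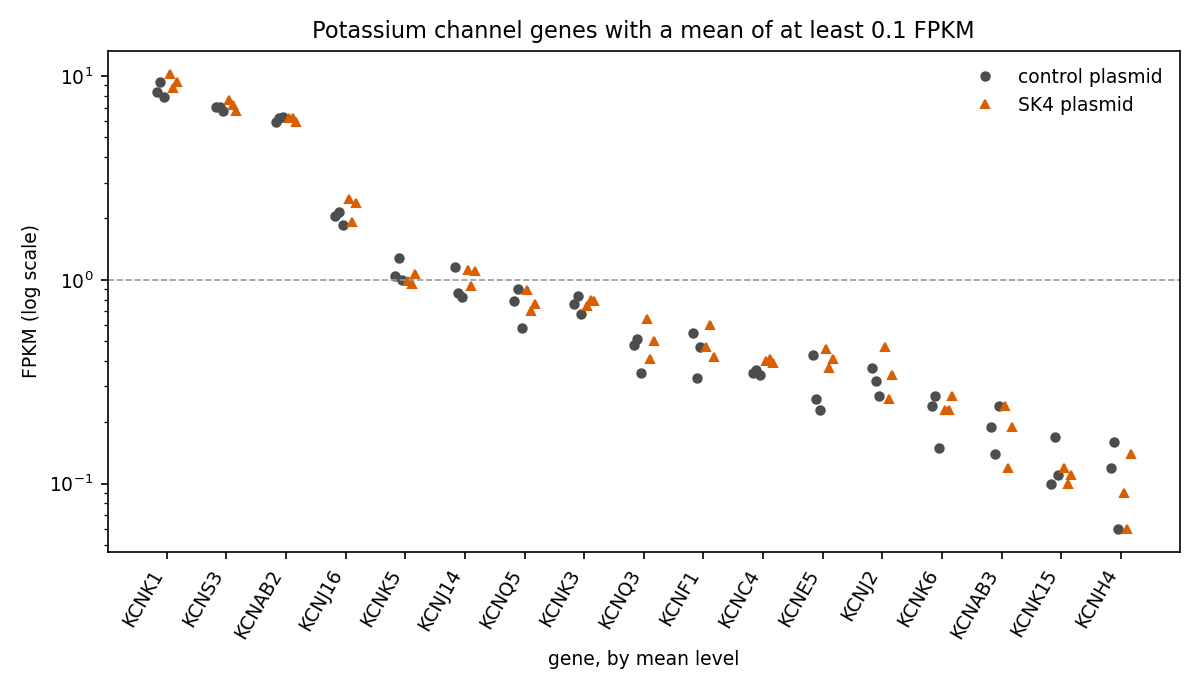
FPKM on a log axis for 17 potassium channel genes with a mean of at least 0.1 FPKM, ordered by mean level, with 1 point per library (grey circles, control plasmid; orange triangles, SK4 plasmid) and a dashed line at 1 FPKM. KCNK1, KCNS3 and KCNAB2 stand above the other genes shown, and the orange and grey points of a gene overlap for every gene shown except KCNC4.

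By class, pore subunits of voltage-gated channels made up the largest share of the level. Their 29 genes summed to 19.8 ± 1.18 FPKM in control cells and 21.2 ± 1.24 FPKM with SK4 (SD, n = 3 each), or 48.0% and 48.4% of the level of all 74 genes. The 12 tandem-pore genes summed to 10.9 ± 1.05 and 11.7 ± 0.73 FPKM, the 13 accessory genes of voltage-gated channels to 6.92 ± 0.0907 and 6.93 ± 0.175 FPKM, and the 13 inward rectifier genes to 3.39 ± 0.305 and 3.77 ± 0.488 FPKM. The large-conductance and sodium-activated pore genes (3 genes) and the large-conductance accessory genes (4 genes) had no member with a mean of 0.1 FPKM or more. These 2 classes summed to 0.143 and 0.117 FPKM in the control libraries.

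**Figure D2:**
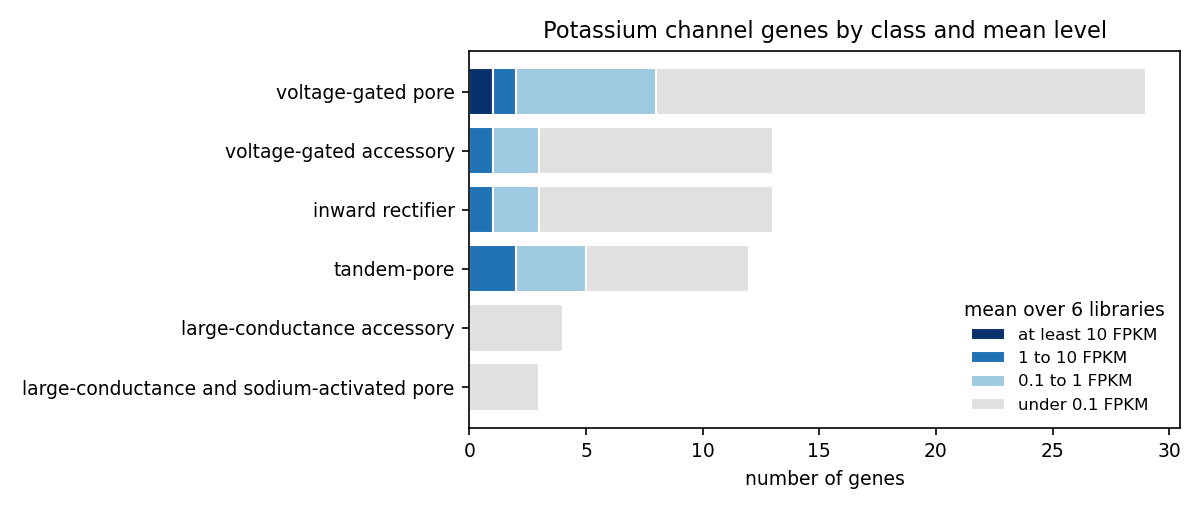
Number of potassium channel genes in each class, split by mean level over the 6 libraries (dark blue, at least 10 FPKM; blue, 1 to 10; pale blue, 0.1 to 1; grey, under 0.1). In every class the grey part, genes under 0.1 FPKM, is the longest, and both large-conductance classes are grey throughout.

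Among the voltage-gated pore subunits, KCNS3 was at more than 1 FPKM. KCNS3 encodes a modifier subunit that forms no channel by itself and is known to assemble with pore subunits such as KCNB2. It lies on chromosome 2 at 17877847 to 18361616 (plus strand, GRCh38) and held 7.06, 7.08 and 6.7 FPKM in control cells and 7.58, 7.18 and 6.75 FPKM with SK4. Its groups overlapped, since SK4 replicate 3 lay below control replicates 1 and 2, and the fitted log2 fold change was 0.04 (95% confidence interval -0.10 to 0.18). Its known partner KCNB2 was near 0, between 0 and 0.04 FPKM.

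The other voltage-gated pore subunits named here were at lower levels per length. KCNQ5 and KCNQ3, which carry the M-current of neurons, were at 0.757 ± 0.163 and 0.447 ± 0.085 FPKM in control cells and 0.783 ± 0.0971 and 0.517 ± 0.116 FPKM with SK4 (SD, n = 3). KCNF1, another modifier subunit that is silent by itself, was at 0.45 ± 0.111 and 0.497 ± 0.0929 FPKM. KCNC4 belongs to the fast-opening channels of rapidly firing neurons and held 0.35, 0.36 and 0.34 FPKM in control cells and 0.4, 0.41 and 0.39 FPKM with SK4, so that its groups did not overlap. It was 1 of the 12 genes between the 0.1 and 1 FPKM filters, and the sole one with that separation, against 7.42% of all genes in that range, and its fitted log2 fold change of 0.08 (-0.09 to 0.26) did not pass. The levels of KCNC4 and KCNQ3 rest on long gene models, and the length the authors divided by was not stated. With a GENCODE exon length of 25042 bases KCNC4 has an estimated 253 to 378 fragments per library. KCNQ3 with 12646 bases has 131 to 295, against 112 to 185 for KCNK5 with 3756 bases. KCNH4 ranged from 0.06 to 0.16 FPKM. The remaining 21 pore genes of this class had means under 0.1 FPKM. They included KCNQ1, the thyroid channel named above, at 0 to 0.04 FPKM, KCNH1 (0 to 0.01 FPKM) and KCNH2 (0 to 0.03 FPKM), which are studied as tumour-associated channels, and KCNA3 (0 to 0.03 FPKM), which accompanies KCNN4 in lymphocytes.

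Of the accessory subunits of voltage-gated channels, KCNAB2 alone exceeded 1 FPKM. KCNAB2 is the cytoplasmic beta subunit of the KCNA channels and has the fold of an aldo-keto reductase. It lies on chromosome 1 at 5991466 to 6101193 and held 5.94, 6.23 and 6.29 FPKM in control cells and 6.2, 6.25 and 5.93 FPKM with SK4. This was the steadiest of the 7 tested genes, with a log2 fold change of -0.01 (-0.13 to 0.12) and fully overlapping groups. The KCNA pore genes with a row (KCNA3, KCNA7 and KCNA10) reached at most 0.03 FPKM in any library. KCNE5, a small membrane protein known to inhibit KCNQ1 channels, held 0.43, 0.26 and 0.23 FPKM in control cells and 0.46, 0.37 and 0.41 FPKM with SK4. It had the largest group difference among the genes that did not reach the 1 FPKM filter, 0.107 FPKM, and its groups overlapped. KCNAB3 was at 0.19 ± 0.05 and 0.183 ± 0.0603 FPKM. KCNE2, the thyroid partner of KCNQ1, was above 0 in 2 libraries and reached 0.05 FPKM. NPHP4, a gene on the opposite strand that overlaps KCNAB2, was at 0.948 FPKM. The libraries kept the strand, but whether the counting used it was not stated in the labels.

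The tandem-pore genes were led by KCNK1. It encodes a weak leak channel that cycles through endosomes, lies on chromosome 1 at 233614004 to 233672512, and held 8.36, 9.29 and 7.91 FPKM in control cells and 10.28, 8.7 and 9.32 FPKM with SK4. Its fold change was the largest of the tested genes, 0.14 on the log2 scale (-0.05 to 0.33), and the groups overlapped because control replicate 2 lay above SK4 replicate 2. KCNK5, an alkaline-activated channel known for cell volume regulation and renal bicarbonate handling, was at 1.04, 1.28 and 1 FPKM in control cells and 0.99, 0.95 and 1.07 FPKM with SK4. Its log2 fold change was -0.09 (-0.33 to 0.14), and again the groups overlapped. KCNK3, an acid-inhibited leak channel, was at 0.757 ± 0.0751 and 0.777 ± 0.0321 FPKM, KCNK6 at 0.22 ± 0.0624 and 0.243 ± 0.0231 FPKM, and KCNK15 at 0.127 ± 0.0379 and 0.11 ± 0.01 FPKM. The other 7 tandem-pore genes, KCNK2 and KCNK9 among them, reached at most 0.14 FPKM in any library.

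KCNK5 has close neighbours that were at or near 0. On chromosome 6, KCNK17 lies 69550 bases and KCNK16 85247 bases from it, all on the minus strand. KCNK17 and KCNK16 encode alkaline-activated tandem-pore channels, and each had 0.01 FPKM in 1 library and was listed at 0 in the other 5. The 250 bases before the RefSeq start (GRCh38.p14) of KCNK5 (chr6:39229476-39229725, minus strand) and of KCNK16 (chr6:39322969-39323218, minus strand) are shown because they differ in CG dinucleotides, the sites of DNA methylation, which are in capitals (31 in KCNK5 and 1 in KCNK16). KCNS3 (chr2:17877597-17877846, plus strand, 14 CG) and KCNJ16 (chr17:70074975-70075224, plus strand, 3 CG) are added as genes present in the cells with an intermediate and a low number.
KCNK5: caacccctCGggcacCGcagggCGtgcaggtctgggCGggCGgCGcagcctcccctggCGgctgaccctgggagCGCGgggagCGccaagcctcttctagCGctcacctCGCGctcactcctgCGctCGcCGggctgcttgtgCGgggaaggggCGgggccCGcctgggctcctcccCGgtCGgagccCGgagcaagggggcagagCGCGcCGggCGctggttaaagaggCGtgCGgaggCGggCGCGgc
KCNK16: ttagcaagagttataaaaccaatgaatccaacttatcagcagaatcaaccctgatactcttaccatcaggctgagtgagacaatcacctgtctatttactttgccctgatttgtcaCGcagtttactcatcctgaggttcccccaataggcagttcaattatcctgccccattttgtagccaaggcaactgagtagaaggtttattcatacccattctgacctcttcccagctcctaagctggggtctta
KCNS3: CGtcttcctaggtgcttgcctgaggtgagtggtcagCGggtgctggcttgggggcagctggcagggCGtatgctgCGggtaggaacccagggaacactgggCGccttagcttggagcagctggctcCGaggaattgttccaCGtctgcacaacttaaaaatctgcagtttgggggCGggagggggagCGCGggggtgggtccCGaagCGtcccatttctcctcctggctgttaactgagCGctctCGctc
KCNJ16: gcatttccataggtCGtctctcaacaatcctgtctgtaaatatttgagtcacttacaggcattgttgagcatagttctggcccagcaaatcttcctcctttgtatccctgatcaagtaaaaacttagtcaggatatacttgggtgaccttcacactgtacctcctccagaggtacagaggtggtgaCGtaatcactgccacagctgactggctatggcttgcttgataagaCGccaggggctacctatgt
KCNK5 is dense in CG along the whole window, whereas that of KCNJ16 has nearly as few as that of KCNK16. The KCNJ16 window precedes a RefSeq start 21796 bases inside the GENCODE gene, so it is the window of 1 annotated start and need not be the start in use.

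Over the 54 of 74 genes with a RefSeq promoter, the median number of CG dinucleotides in these windows was lower at lower levels, as it was in all genes. The median was 27 CG in the 5 genes with a mean of at least 1 FPKM (range 3 to 31), 20 CG in the 9 genes between 0.1 and 1 FPKM, and 8 CG in the 40 genes under 0.1 FPKM (range 0 to 46). For all protein-coding rows with a promoter the medians were 21, 18 and 7 CG in the same order. The GC box GGGCGG, searched on both strands, was in 31 of the 54 windows (57.4%) in 59.7% of the windows of all protein-coding rows with one, and in 42.3% of all RefSeq promoter windows of that length. The letters TATAAA, on both strands, were in 5 of the 54 (9.26%), in 8.11% of the protein-coding rows and in 11.1% of all RefSeq windows. Single genes departed from the medians. KCNMA1, the large-conductance calcium-activated channel, had 46 CG at a mean of 0.085 FPKM, and KCNJ16 had 3 CG at 2.14 FPKM. For 11 of the 54 genes the RefSeq start lies more than 1000 bases from the start of the GENCODE gene. Among them are 2 of the 5 genes at 1 FPKM or more, KCNJ16 and KCNAB2. The KCNAB2 window, whose 27 CG is the median of those 5 genes, also holds exon sequence of KCNAB2 and NPHP4. Which start these cells use was not measured. These are descriptions of letters in a window, and methylation was not measured.

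**Figure D3:**
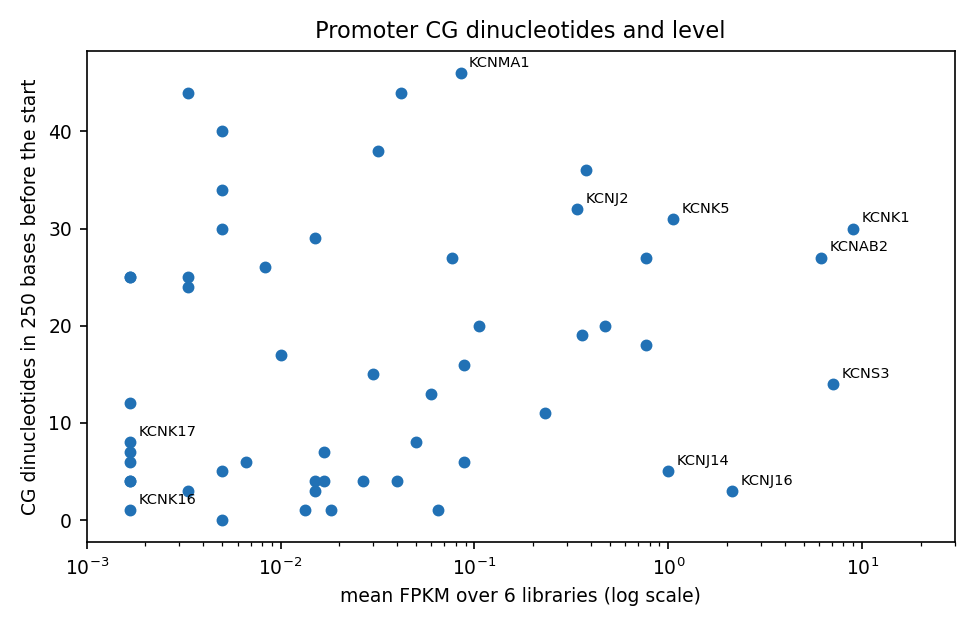
Number of CG dinucleotides in the 250 bases before the RefSeq start (vertical axis) against the mean FPKM over the 6 libraries on a log axis (horizontal), with 1 point for each of 54 potassium channel genes. KCNK1, KCNAB2 and KCNK5 lie at 27 to 31 CG on the right, KCNJ16 and KCNJ14 low on the right at 3 and 5 CG, and the genes under 0.1 FPKM spread from 0 to 46 CG.

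Of the inward rectifiers, KCNJ16 and KCNJ14 passed the 1 FPKM filter. KCNJ16 is known to form channels only together with KCNJ10 or KCNJ15, which were not analysed here. It lies on chromosome 17 at 70053429 to 70135608 and held 2.05, 2.15 and 1.85 FPKM in control cells and 2.48, 1.92 and 2.39 FPKM with SK4. SK4 replicates 1 and 3 were above all controls and SK4 replicate 2 was not, and the log2 fold change was 0.13 (-0.11 to 0.37). KCNJ2, the classical strong rectifier of muscle, starts 33064 bases beyond the end of KCNJ16 on the same strand and was lower, at 0.32 ± 0.05 FPKM in control cells and 0.357 ± 0.106 FPKM with SK4. KCNJ14, a relative of KCNJ2, lies on chromosome 19 at 48455509 to 48466980 and held 1.16, 0.86 and 0.82 FPKM in control cells and 1.12, 0.93 and 1.1 FPKM with SK4. Its groups overlapped, and the log2 fold change was 0.10 (-0.17 to 0.38). On the same strand KCNJ14 overlaps GRWD1, a ribosome assembly gene at 18.5 FPKM, and AC008403.1, annotated as protein-coding, at 10.0 FPKM. How shared reads were handled was not stated, so the level of KCNJ14 is uncertain. The remaining 10 inward rectifier genes had means under 0.1 FPKM. Among them were KCNJ11, the pore of the ATP-sensitive channel of pancreatic beta cells (0.01 to 0.08 FPKM), and KCNJ12 and KCNJ18, near-identical copies whose reads cannot be assigned with certainty (at most 0.01 FPKM each).

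The calcium-activated relatives of SK4 with large conductance were at low levels per length. KCNMA1, their pore subunit, held 0.1, 0.08 and 0.09 FPKM in control cells and 0.07, 0.08 and 0.09 FPKM with SK4. These values rest on a long gene model. With its GENCODE exon length of 35644 bases, KCNMA1 has an estimated 91 to 128 fragments per library, against 112 to 185 for KCNK5 with 3756 bases, and the length the authors divided by was not stated. Its accessory subunits KCNMB1 to KCNMB4 each reached at most 0.08 FPKM. KCNT2, a sodium-activated channel, ranged from 0.04 to 0.1 FPKM, and KCNU1, which is typical of sperm, was above 0 in 1 library. FPKM are deposited with 2 decimals, so values this low are coarsely rounded. Over the whole set, 14 genes were above 0 in a single library.

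No potassium channel gene passed the test for a difference between the plasmids. The limma fit on log2(FPKM + 0.5) covered the 11139 genes that reached 1 FPKM in 3 or more of the 6 libraries, and 7 of the 74 genes were among them, including KCNK1, KCNS3, KCNAB2, KCNJ16, KCNK5 and KCNJ14, the last with a mean of 0.998 FPKM. Of these, 0 of 7 passed at an adjusted p below 0.05 (Benjamini-Hochberg; adjusted p = 0.99997 for each of the 7), against 1 gene (0.00898%) of all tested, KCNN4 itself. At an unadjusted p below 0.05 the counts were 0 of 7 and 184 of 11139 (1.65%). In none of the 7 did the groups stay apart, against 5.34% of all tested genes. The log2 fold change was positive for 5 of 7 genes, against 57.9% of all tested, and the median was 0.10, against 0.01. Without control replicate 3 the median of the 7 genes was 0.043. That library was the lowest of the 6 for 5 of the 7 genes, with a median offset of -0.16 on the log2 scale, against -0.07 over all tested genes.

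The intervals bound the differences these libraries leave room for. For all 7 tested genes the 95% confidence interval of the fold lay inside 1.5-fold in either direction, as it did for 96.8% of all tested genes. The interval reached highest for KCNJ14, whose fold was 1.08 (0.889 to 1.3), and lowest for KCNK5, whose fold was 0.938 (0.798 to 1.1). KCNAB2 had the narrowest, from 0.912 to 1.09. These fold changes are on the log2(FPKM + 0.5) scale, where a low gene's change appears smaller than it is. With the filter lowered to 0.1 FPKM in at least 3 libraries, 19 of the 74 genes were tested among 18067. Of these 0 were called, against 0.00553% of all tested, and 0 had an unadjusted p below 0.05, against 2.72%. Their log2 fold changes ran from -0.09 for KCNK5 to 0.19 for KCNE5 (-0.08 to 0.45), with 14 of 19 positive, against 56% of all tested.

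**Figure D4:**
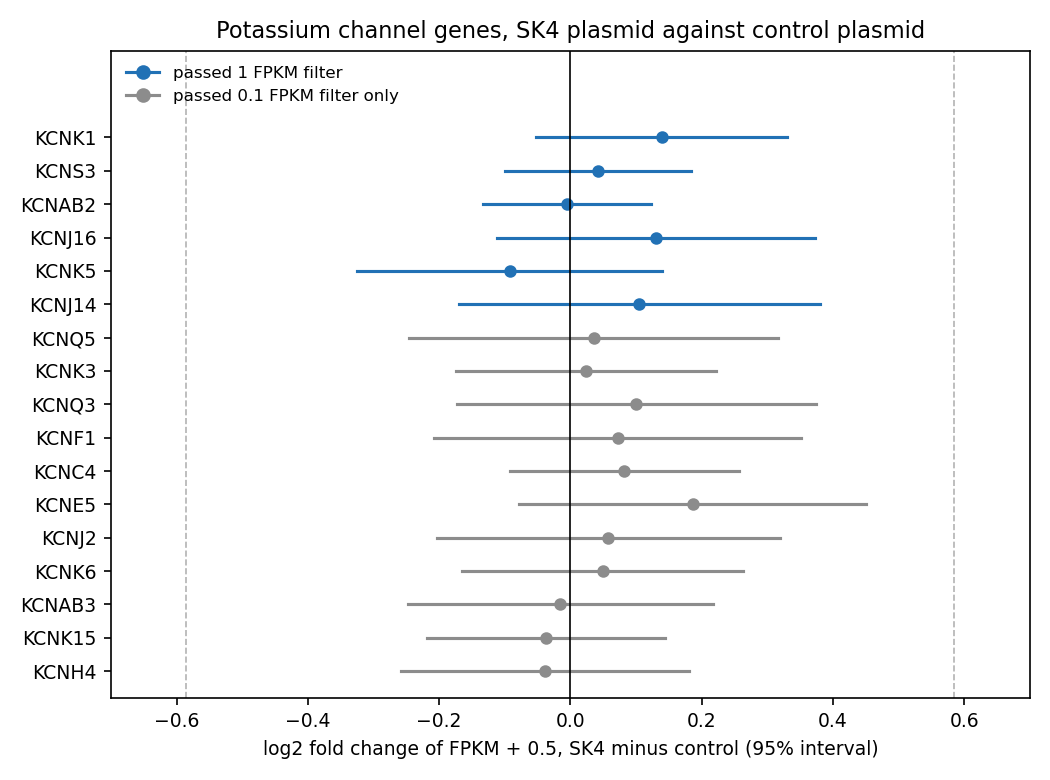
Log2 fold change of FPKM + 0.5, SK4 minus control, with its 95% confidence interval from limma, for 6 genes that passed the 1 FPKM filter (blue) and 11 that passed only the 0.1 FPKM filter (grey), in order of level. Every interval includes 0 and lies between the dashed lines, which mark 1.5-fold in either direction. The added 0.5 shrinks the fold of low genes, so for them the lines do not bound the change in FPKM itself.

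The spread between libraries exceeded the estimated counting error for each of the 7 tested genes. From the estimated depth and the GENCODE exon length, KCNK1 rested on about 852 to 1361 fragments per library and KCNK5 on about 112 to 185. Counting error then gives a coefficient of variation of 2.92% for KCNK1 and 8.36% for KCNK5, and the pooled within-group values were 8.37% and 10.9%. The FPKM order of the named leading genes was the same in each library. It rests on the length used for each gene, which was not stated and which repeated libraries cannot test. KCNAB2, with a GENCODE exon length of 9534 bases, has an estimated 1781 to 2287 fragments per library, more than KCNK1 with 3627 bases. By FPKM, KCNK1 was above KCNS3, KCNS3 above KCNAB2 and KCNAB2 above KCNJ16 in 6 of 6 libraries. The ranges of neighbours in this order, from KCNK1 down to KCNK5, did not overlap across libraries. From KCNK5 downward, neighbours mostly overlapped, and KCNK5 was above KCNJ14 in 3 of 6 libraries.

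The share of these genes in the potassium channel transcripts differed between the groups. In control cells KCNN4 was of the same order as KCNK1 and KCNS3. Pore-forming genes are counted here by class, so they include modifier subunits such as KCNS3 and KCNF1, which form no channel by themselves. The 57 such genes outside the KCNN family summed to 35.29, 35.64 and 31.75 FPKM in control cells and to 38.88, 36.22 and 35.63 FPKM with SK4. The groups overlapped narrowly, since SK4 replicate 3 at 35.63 FPKM lay just below control replicate 2 at 35.64 FPKM. KCNN4 made up 18.8%, 18.7% and 21.0% of the summed FPKM of all pore-forming potassium channel genes in control cells and 82.4%, 80.2% and 82.4% in the SK4 libraries. The share rests on the KCNN4 value, which adds plasmid and chromosomal transcripts. KCNN1, the relative next in level, was at 0.417 ± 0.0896 FPKM in control cells and 0.353 ± 0.0569 FPKM with SK4, and KCNN2 and KCNN3 reached at most 0.03 FPKM.

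**Figure D5:**
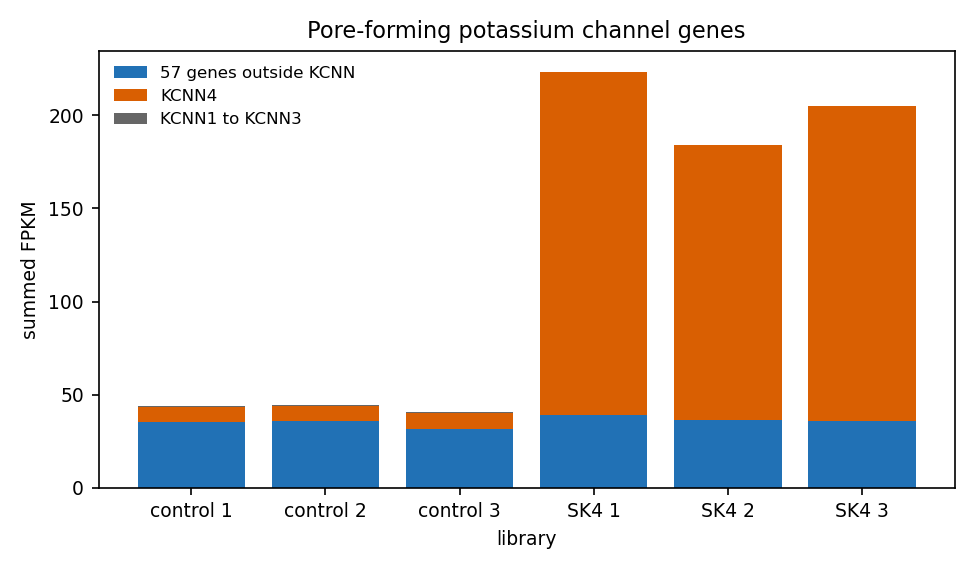
Summed FPKM of pore-forming potassium channel genes, modifier subunits included, in each library, stacked as the 57 genes outside the KCNN family (blue), KCNN4 (orange) and KCNN1 to KCNN3 (grey, barely visible). The blue part stays between 31.75 and 38.88 FPKM in all 6 libraries, while the orange part rises from at most 8.52 FPKM in the control to at least 147.66 FPKM with SK4.

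Partners of these channels and other genes of potassium transport were also not called. Of 48 listed genes 42 had a row and 15 were tested, with 0 called higher and 0 called lower, against 0.00898% of all tested genes called. At an unadjusted p below 0.05 (limma) there were 0, against 1.65% of all tested, so few were to be found among 15 genes. The log2 fold change was positive for 12 of the 15, against 57.9% of all tested, with a median of 0.02, against 0.01. The sodium-potassium pump, which builds the gradient that the channels use, was well represented, with its subunit gene ATP1B3 at 66.6 ± 4.64 FPKM in control cells and 67.1 ± 3.34 FPKM with SK4. S100A10, an annexin partner known to bind KCNK3, was at 378 ± 9.98 and 389 ± 11.1 FPKM. The potassium-chloride cotransporter gene SLC12A7 had the smallest unadjusted p of the list, at 15.6 ± 0.32 and 16.7 ± 0.631 FPKM. HCN2 and HCN3, cation channels opened by hyperpolarisation, were at 1.47 and 1.84 FPKM in the control libraries. Among accessory partners, ABCC8 and ABCC9, which complete the ATP-sensitive channel, and DPP6, which serves the KCND channels, had group means of at most 0.0133 FPKM. LRRC26, an auxiliary subunit of the KCNMA1 channel, was higher, at 0.363 ± 0.112 FPKM in control cells and 0.333 ± 0.0802 FPKM with SK4.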

How the data were processed

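The authors deposited 1 table of FPKM values, rounded to 2 decimals, with 1 column per library. Per the submitters' processing notes, HISAT2 and GRCh38 were used. Their versions, the annotation release and the counting tool are not given in the sources used here. Per the labels' protocols, polyadenylated RNA was captured and the libraries kept the strand. FPKM removes total depth and gene length, not other library differences. Genes reaching 1 FPKM in 3 or more of 6 libraries were compared as log2(FPKM + 0.5) with limma 3.58.1 in R 4.3.3 (trended, robust prior variance, group as the only term) and Benjamini-Hochberg adjustment over all tested genes. The fit was tested on simulated data. Depth was estimated from 561 single-exon genes under 160 nt, whose low values are multiples of 1 fragment (99.4% to 99.5% whole within 0.1). This covers counting error only. The labels do not say whether replicates were separate cultures, so p-values measure the spread between these libraries, which may be technical. Coordinates and exon lengths came from GENCODE 29 (GRCh38; 74 of 74 genes matched), and promoters from RefSeq (GRCh38.p14). Genes that passed the filter were named, others by level; the values of some genes are not reported here. The genes, classes, lists and alternatives were chosen with earlier results of these data known.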

Additional observations from a re-analysis of the deposited data

How the results depend on the processing

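Across 17 alternative fits (pseudocount, filter, scaling, library weights, prior variance, replicate number, threshold, left-out libraries), 0 potassium channel genes were called in any and KCNN4 was called in each. KCNK1, KCNJ16 and KCNJ14 kept a positive and KCNK5 a negative log2 fold change in all 17. Alternatives that change only the filter, prior variance, replicate block or threshold leave a gene's fold change as it was. All reuse the same libraries, so a kept sign is no evidence of a difference. KCNS3 was at -0.018 with library weights, and KCNAB2 ran from -0.029 to 0.016 when single libraries were left out, so neither kept its sign. With no filter on low values the median of the tested genes was 0.0095. Without control replicate 3 and SK4 replicate 2 together, which earlier results of these data set apart, 4 genes of all tested were called, none of them a potassium channel gene outside the KCNN family. A limit of 0.1 FPKM in place of 1 FPKM gave 19 genes in place of 7. Without the gene of highest mean the summed level was 31 FPKM in control cells and 32.66 FPKM with SK4, in place of 41.3 and 43.9 FPKM. The replicate block gave the same 1 called gene, KCNN4 (log2 fold change 4.23, adjusted p = 0.000148, limma). Deviations of same-numbered libraries correlated at 0.306, -0.41 and -0.154 over the tested genes. Pairs with different numbers ran from -0.458 to 0.528. Deviations from the mean of 3 libraries depend on each other, so these values cannot tell whether same-numbered libraries were handled together. Low genes are limited by the 2 decimals deposited.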

Other observations

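Noncoding rows under potassium channel symbols sat above their coding partners in 6 of 14 cases, 4 of them with a mean of at least 0.1 FPKM. The other 2, KCNAB1-AS2 and KCNQ1-AS1, were at 0.0267 and 0.0167 FPKM, against 0.0167 FPKM for KCNAB1 and 0.0133 FPKM for KCNQ1. KCNK4-TEX40, a read-through transcript annotated on the same strand as KCNK4, had a mean of 0.813 FPKM over the 6 libraries, and KCNK4 itself 0.0167 FPKM. The antisense genes KCNIP2-AS1, KCNK15-AS1 and KCNMB2-AS1 had means of 0.513, 0.427 and 0.36 FPKM, and KCNIP2, KCNK15 and KCNMB2 means of 0.0883, 0.118 and 0.015 FPKM. For KCNJ2-AS1 the order was the opposite, 0.095 FPKM against 0.338 FPKM for KCNJ2. Whether the counting used the strand was not stated, so reads of partners that overlap on opposite strands cannot be told apart with certainty. KCNK4-TEX40 overlaps KCNK4 by 8310 bases on the same strand, where strand would not separate them. How shared reads were handled was not stated, so the levels of both are uncertain.

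KCNK15-AS1, singled out after its values were seen, held 0.37, 0.28 and 0.38 FPKM in control cells and 0.57, 0.47 and 0.49 FPKM with SK4. Its groups did not overlap, as for 7.42% of all genes between the 0.1 and 1 FPKM filters. With the 0.1 FPKM filter its log2 fold change was 0.26 (95% confidence interval 0.05 to 0.47) and it was not called (limma, unadjusted p = 0.0227 and rank 234 of 18067 genes). KCNK15, on the other strand, ranged from 0.1 to 0.17 FPKM with overlapping groups.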
